A study of Mus musculus with 5 samples.

Results

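The expression of 10 genes known for their use in fat cells was followed across 5 RNA-seq libraries of LLC tumors: ADIPOQ, PLIN1, FABP4, CFD, CAR3, PPARG, LPL, CIDEC, RETN and CD36. LLC (Lewis lung carcinoma) is a mouse lung cancer cell line that grows in C57BL/6 mice. The study describes tumors from mice that received their treatment by vein, whereas the sample labels describe LLC cells held for 72 h with each treatment and name lung as the tissue. The Control library is labelled only as the control, with no vehicle named. The BMN library had BMN673, a PARP inhibitor, alone. The PAZA library had PAZA alone, a polymer carrier to which the DNA methyltransferase inhibitor azacytidine is bound. The low-dose and high-dose BMN/PAZA libraries had BMN673 loaded into PAZA, at a low and a high dose for which the labels give no amounts. How many tumors went into a library is not given in the sources used here. Each group has 1 library, so no difference below has a replicate check, and none was tested.

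The 10 genes were taken by symbol from the 3 deposited tables that together hold all 5 libraries. The 3 tables share 13979 symbols, among them 8 of the 10 genes. PLIN1 and RETN have no row in the table of Control and PAZA, a table that holds 0 symbols at 0 in both of its libraries. A level here is a deposited value, taken as FPKM (read fragments relative to gene length and library size), rescaled so that each library sums to 1000000 over the shared symbols. The tables give no read counts, so the depth is unknown and no counting error can be attached to a level. A level of 0 can be a failed estimate, because ALDOA, a glycolytic enzyme that all cells use, is listed at 0 in BMN and has a level of at least 352 in each of the other 4 libraries. A low level can be too low an estimate as well, because GAPDH, another glycolytic enzyme of all cells, had only 3.85 in Control, 3.42 in PAZA, 4.67 in BMN, 3.77 at low-dose BMN/PAZA and 1.84 at high-dose BMN/PAZA.

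A fat cell stores triglyceride in a lipid droplet coated by perilipin-1 (PLIN1) and the droplet-enlarging protein CIDEC. PPARG is the nuclear receptor that drives fat-cell formation. Lipoprotein lipase (LPL), the scavenger receptor CD36 and the fatty acid carrier FABP4 bring fatty acids in, and ADIPOQ (adiponectin), CFD (adipsin, also complement factor D) and RETN (resistin) are secreted. Several of these genes serve other cells as well. FABP4 is made by endothelium and macrophages, CD36 and LPL by macrophages and muscle, CAR3 (carbonic anhydrase 3) by muscle, and PPARG by macrophages and some epithelia. In bulk RNA, fewer cells of a type and less RNA per cell cannot be told apart.

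The genes that define a fat cell were low wherever they have a row, with no level above 1.66. With the limit that GAPDH sets on reading a single low level, these tables do not show the markers that a fat-cell label would need, and the set is described here gene by gene. The levels of ADIPOQ, PLIN1, CIDEC and RETN summed to 1.66 in Control, 0.661 in PAZA, 1.49 in BMN, 0.296 at low-dose BMN/PAZA and 1.92 at high-dose BMN/PAZA. In Control and PAZA that sum holds ADIPOQ and CIDEC only, since PLIN1 and RETN have no row there. The genes with a row summed to 66.5, 137, 144, 75.5 and 107 in the same order, and FABP4 alone made up between 50.6% and 76.0% of that sum. Only 5 of the 10 genes (FABP4, CFD, CAR3, LPL and CD36) had a level of at least 1 in every library. ADIPOQ, PLIN1 and RETN stayed under 1 in every library in which they have a row. At low-dose BMN/PAZA, 4 of the 10 (ADIPOQ, PPARG, CIDEC and RETN) were listed at 0.

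**Figure D1:**
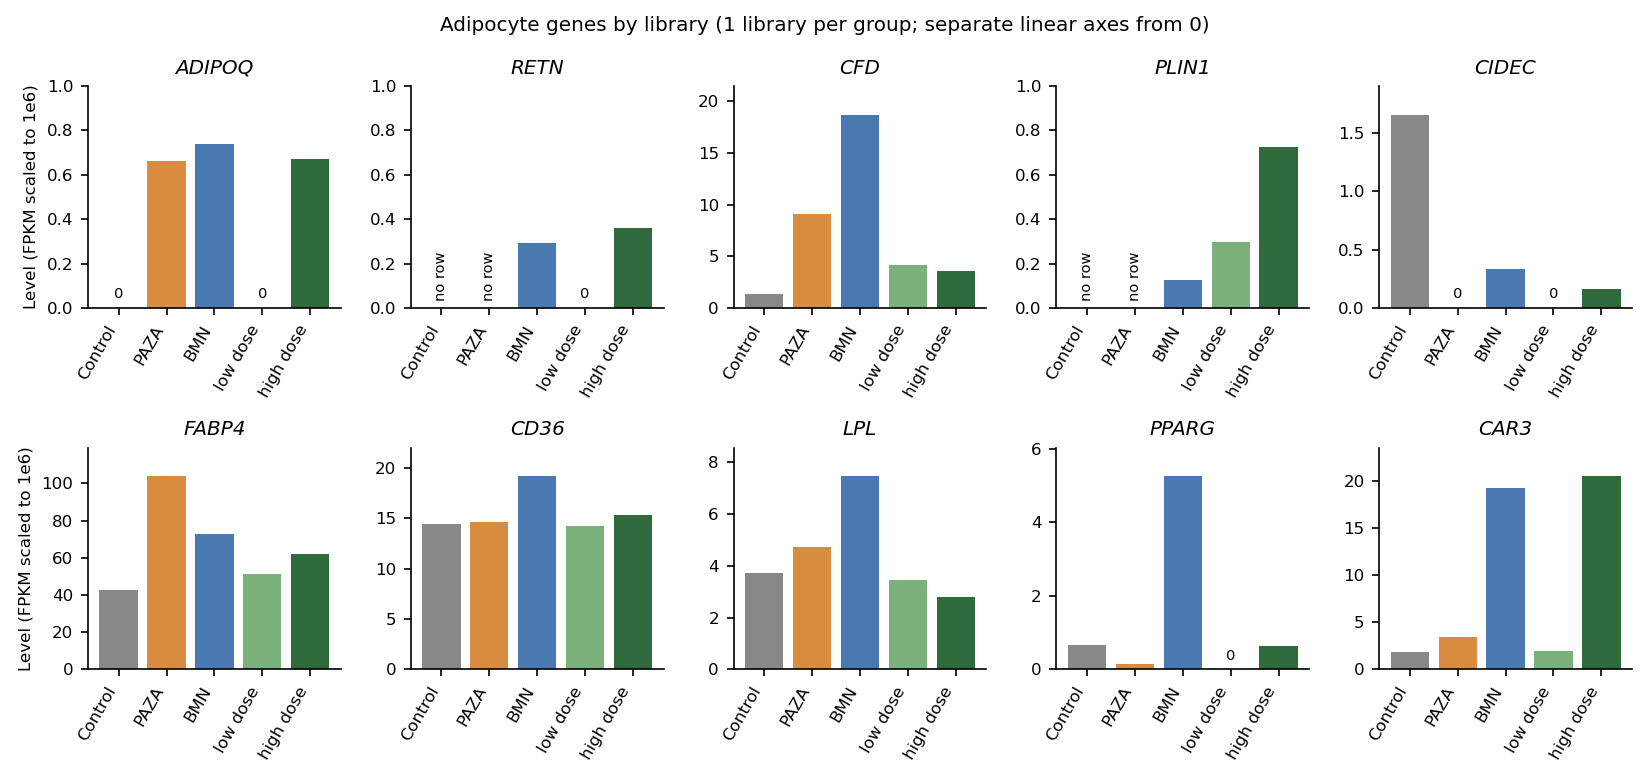
Level of each of the 10 genes in each of the 5 libraries (1 library per group), with levels as FPKM rescaled to sum to 1000000 over shared symbols. FABP4 and CD36 stood above 14 in every library, whereas ADIPOQ, PLIN1 and RETN stayed under 1 wherever they have a row.

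Other genes restricted to fat cells were as low. Of 13 such genes, 5 have no row in the 3 tables and 7 others stayed under a level of 1 in every library. MRAP, a melanocortin receptor partner, was the highest of them at 1.53 in Control. The leptin gene LEP reached 0.253 at low-dose BMN/PAZA and was listed at 0 in Control, BMN and high-dose BMN/PAZA. The table of BMN and low-dose BMN/PAZA is the longest, with 55348 symbols, and has a row for 21 of 22 fat-cell and brown-fat genes. In it, 9 of the 21 were at 0 in both libraries, including UCP1, the heat-producing protein of brown fat. The highest of the rest was COX7A1, a mitochondrial subunit that muscle also uses, at 7.97 FPKM, and without it the highest was 0.980 FPKM. On the scale of levels, COX7A1 had 17.5 in Control, 14.1 in PAZA, 4.51 in BMN, 13.7 at low-dose BMN/PAZA and 17.3 at high-dose BMN/PAZA, and was at least 2-fold lower than Control in BMN alone. Of 8 lung epithelium genes in the same table, 7 were at 0 in both libraries, and AGER had 0.351 FPKM at low-dose BMN/PAZA.

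**Figure D2:**
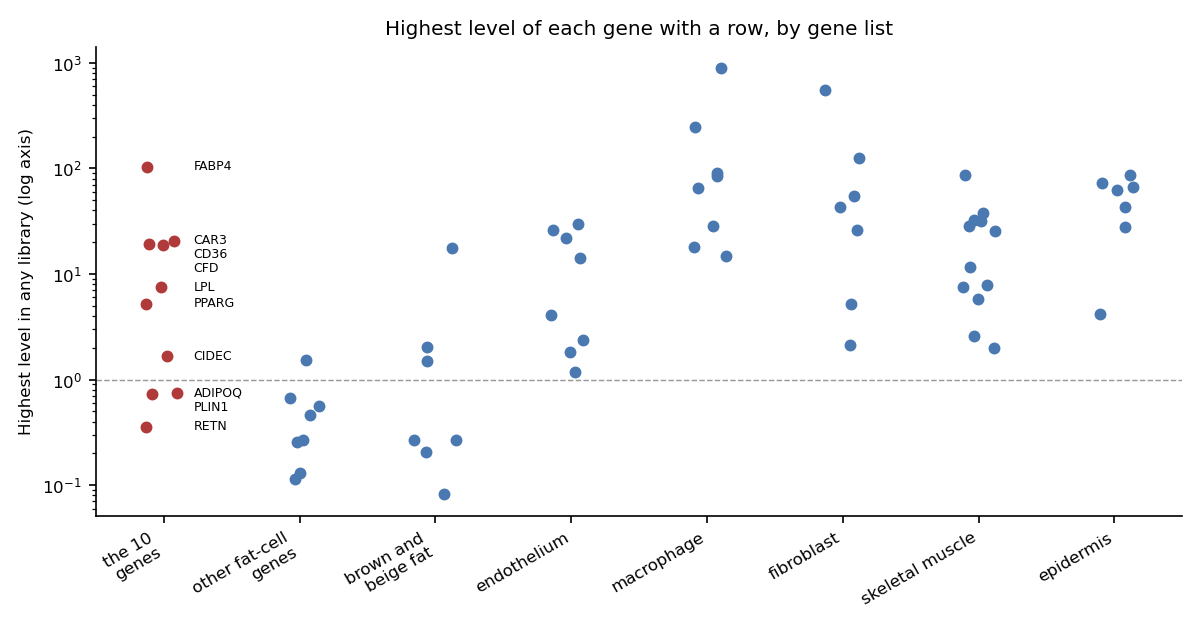
Highest level in any of the 5 libraries for each gene with a row, by gene list, on a log axis, with 1 point per gene and a dashed line at a level of 1. FABP4 stands at 104 among the 10 genes, and ADIPOQ, PLIN1 and RETN lie under 1 with most of the other fat-cell genes.

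Adiponectin and resistin are hormones made by mouse fat cells. ADIPOQ (chr16:23146536-23158028 of GRCm38, plus strand) had a level of 0.661 in PAZA, 0.739 in BMN and 0.672 at high-dose BMN/PAZA, and was listed at 0 in Control and at low-dose BMN/PAZA. RETN (chr8:3655770-3660110, plus strand) had 0.293 in BMN and 0.359 at high-dose BMN/PAZA and was listed at 0 at low-dose BMN/PAZA. Both genes were thus listed at 0 in the low-dose library, which ADIPOQ shared with Control. A 0 can be a failed estimate, and the depth behind such low levels is unknown.

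The droplet-coat genes were also low, and they did not share an order over the libraries. PLIN1 (chr7:79720218-79732903, minus strand) had 0.124 in BMN, 0.296 at low-dose BMN/PAZA and 0.724 at high-dose BMN/PAZA. In the separate table of PAZA and low-dose BMN/PAZA, PLIN1 was listed at 0 in PAZA. CIDEC (chr6:113424634-113435760, minus strand) had 1.66 in Control, 0.335 in BMN and 0.166 at high-dose BMN/PAZA, and was listed at 0 in PAZA and at low-dose BMN/PAZA. CIDEC was thus highest in Control, the only library where it passed a level of 1.

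CFD, the serine protease that starts the alternative complement pathway, had the widest relative range of the genes that were above 0 in every library. CFD (chr10:79890853-79892655, plus strand) had 1.35 in Control, 9.13 in PAZA, 18.7 in BMN, 4.14 at low-dose BMN/PAZA and 3.60 at high-dose BMN/PAZA. The BMN level was 13.8 times the Control level, and the PAZA level 6.75 times. Each of the 4 treated libraries stood above Control, and both BMN/PAZA libraries stood below BMN and below PAZA.

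PPARG was read above a level of 1 in BMN only. PPARG (chr6:115360951-115490399, plus strand) had 0.676 in Control, 0.154 in PAZA, 5.25 in BMN and 0.640 at high-dose BMN/PAZA, and was listed at 0 at low-dose BMN/PAZA. The BMN level was 7.76 times the Control level, and the other 3 libraries with a value were all under 1. The antisense gene Gm44079 overlaps an exon of Pparg, and whether the counting used strand is not given in the sources used here. The exons of the other 9 genes overlap no other gene.

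The RNA level of a gene sums over its start sites, and PPARG has several. Stretches of 250 bases that end at a start site (RefSeq, GRCm38.p6, strand of the gene) are shown for PPARG, CFD and ADIPOQ. PPARG is shown at its upstream start and at the downstream start of its longer, fat-cell form. CFD had the widest relative range of the genes above 0 in every library, and ADIPOQ defines the fat cell. Capitals mark matches on either strand to AGGTCA, the core bound by nuclear receptors, or to TTGCNNAA, a C/EBP motif.

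PPARG upstream start (chr6:115360894-115361143): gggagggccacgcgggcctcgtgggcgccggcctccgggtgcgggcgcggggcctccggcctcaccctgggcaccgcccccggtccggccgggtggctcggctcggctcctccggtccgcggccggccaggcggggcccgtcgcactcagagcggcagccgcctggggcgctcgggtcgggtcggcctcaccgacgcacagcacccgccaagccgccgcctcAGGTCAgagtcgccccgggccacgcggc

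PPARG downstream start (chr6:115421816-115422065): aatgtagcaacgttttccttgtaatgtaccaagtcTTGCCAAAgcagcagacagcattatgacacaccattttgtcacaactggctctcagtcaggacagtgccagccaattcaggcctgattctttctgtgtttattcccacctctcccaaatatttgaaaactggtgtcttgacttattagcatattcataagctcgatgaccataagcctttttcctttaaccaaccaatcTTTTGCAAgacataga

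CFD (chr10:79890603-79890852): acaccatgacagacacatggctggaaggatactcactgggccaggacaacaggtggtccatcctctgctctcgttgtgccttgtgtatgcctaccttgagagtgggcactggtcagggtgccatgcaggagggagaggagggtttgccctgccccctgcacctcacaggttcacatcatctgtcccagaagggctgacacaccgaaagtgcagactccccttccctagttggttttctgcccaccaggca

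ADIPOQ (chr16:23146286-23146535): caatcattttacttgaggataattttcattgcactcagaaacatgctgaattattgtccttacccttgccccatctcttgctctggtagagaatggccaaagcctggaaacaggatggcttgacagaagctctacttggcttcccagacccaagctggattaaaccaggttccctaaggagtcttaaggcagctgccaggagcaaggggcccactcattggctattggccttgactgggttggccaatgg

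The upstream PPARG stretch is 82.4% G and C and holds 1 AGGTCA, and the downstream stretch is 40.8% G and C and holds 2 TTGCNNAA matches. The CFD and ADIPOQ stretches hold no match to either motif, to the TATA box TATAAA or to DR1, the element that PPARG binds together with RXRA. RefSeq stretches were matched for 7 of the 10 genes, 10 stretches in all, and DR1 was found in none of these. Among 32851 stretches of the same length, AGGTCA was in 14.0%, TTGCNNAA in 9.56%, TATAAA in 12.4% and DR1 in 0.0335%. A match describes letters only, and no binding or methylation was measured here.

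CAR3, which hydrates carbon dioxide in muscle and fat, had a low and a high pair of libraries, with PAZA between them. CAR3 (chr3:14863512-14872523, plus strand) had 1.88 in Control, 3.47 in PAZA, 19.3 in BMN, 1.92 at low-dose BMN/PAZA and 20.5 at high-dose BMN/PAZA. The BMN level was 10.3 times and the high-dose level 10.9 times that of Control, whereas the low-dose level was 1.02 times that of Control. CAR3 is the member in which low-dose and high-dose BMN/PAZA stood farthest apart.

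The genes of fatty acid uptake had the narrowest relative ranges of the genes above 0 in every library, and FABP4 had the highest level of all 10 genes in each library. FABP4 (chr3:10204088-10208576, minus strand) had 42.8 in Control, 104 in PAZA, 73.0 in BMN, 51.5 at low-dose BMN/PAZA and 62.3 at high-dose BMN/PAZA. It lay between the 81.3 and the 92.7 percentile of the shared symbols, and the PAZA level was 2.42 times the Control level. FABP5, a close relative made by many cell types, had 77.1, 90.9, 73.5, 53.1 and 58.3 in the same order. The longest identical run between the FABP4 and FABP5 transcripts is 12 bases.

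CD36 (chr5:17781690-17888801, minus strand) had 14.4 in Control, 14.7 in PAZA, 19.1 in BMN, 14.2 at low-dose BMN/PAZA and 15.3 at high-dose BMN/PAZA. The BMN level was the highest, at 1.33 times Control, and the other 4 libraries lay between 14.2 and 15.3. LPL (chr8:68880491-68907448, plus strand) had 3.71, 4.74, 7.45, 3.44 and 2.80 in the same order, with BMN again the highest at 2.01 times Control.

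Differences between libraries were also taken on the log2(level + 1) scale, where 2-fold is a difference of 1 and changes of low genes are understated. The 4 comparisons with Control share the 1 Control library and are given side by side. In PAZA, the 8 genes with a row had a median difference of 0.46, against -0.068 over all symbols. FABP4 (1.26) and CFD (2.11) were at least 2-fold higher, where 3.47% of all symbols were, and CIDEC, listed at 0 in PAZA, was at least 2-fold lower, where 3.53% were. In BMN, the median difference was 0.82, against 0.093 over all symbols. CFD (3.06), CAR3 (2.82) and PPARG (1.90) were at least 2-fold higher, where 4.66% of all symbols were, and 0 of the 8 genes were at least 2-fold lower, where 2.25% were. CIDEC in BMN, with a difference of -0.992, lay just under 2-fold lower, and with a pseudocount of 0.1 it passed 2-fold (-2.01).

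For low-dose BMN/PAZA, the median difference of the 8 genes from Control was -0.0081, against -0.034 over all symbols. ADIPOQ, at 0 in both libraries, enters that median with a difference of 0, and without it the median of the other 7 was -0.016. CFD (1.13) was at least 2-fold higher, where 3.65% of all symbols were, and CIDEC, listed at 0, was at least 2-fold lower, where 3.54% were. At high dose, the median was 0.31, against -0.17 over all symbols. CAR3 (2.90) was at least 2-fold higher, where 3.2% of all symbols were, and CIDEC (-1.19) was at least 2-fold lower, where 4.95% were. CFD at high dose, with a difference of 0.97, lay just under 2-fold.

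**Figure D3:**
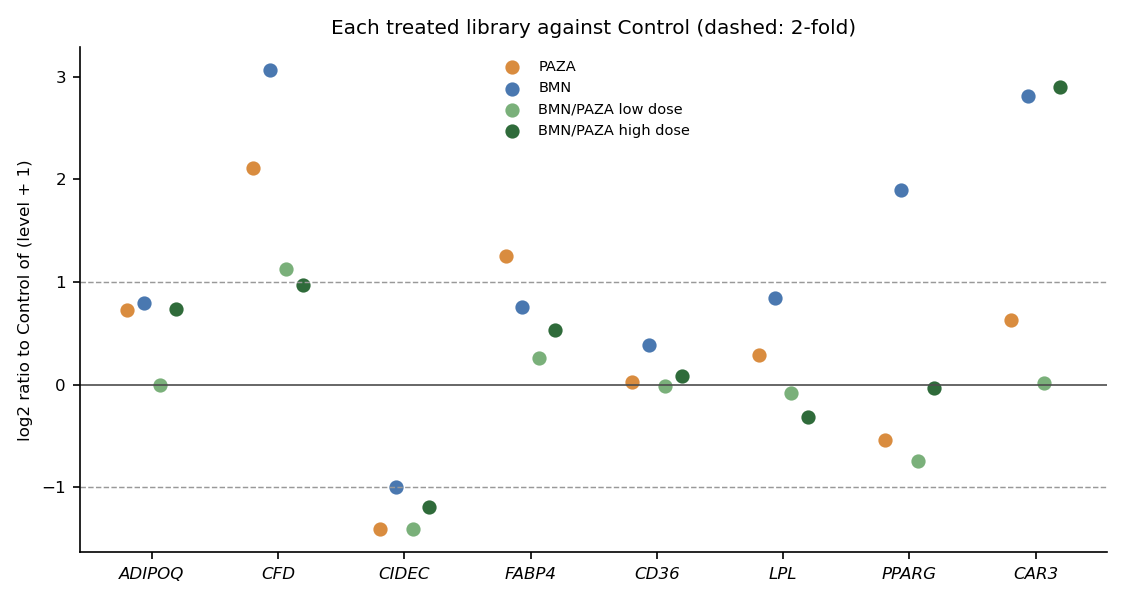
Difference from Control on the log2(level + 1) scale for the 8 genes with a row in all libraries, 1 point per gene and treated library, with dashed lines at 2-fold. CFD stood at 3.06 in BMN and 2.11 in PAZA, and CAR3 at 2.82 in BMN and 2.90 at high-dose BMN/PAZA.

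Compared with BMN alone, all 10 genes have a row in both BMN/PAZA libraries. At low dose, the median difference from BMN was -0.65, against -0.067 over all symbols. CFD (-1.94), CAR3 (-2.80) and PPARG, listed at 0 at low dose, were at least 2-fold lower, where 5.26% of all symbols were, and 0 of the 10 were at least 2-fold higher, where 3.37% were. At high dose, the median was -0.21, against -0.25 over all symbols, and it was 0.06 and 0.08 under the other 2 scalings tried. CFD (-2.10), PPARG (-1.93) and LPL (-1.15) were at least 2-fold lower, where 6.63% of all symbols were, and 0 of the 10 were at least 2-fold higher, where 2.45% were. CAR3 at high dose was 1.06 times its BMN level. The LPL difference was under 2-fold with both of these scalings. PLIN1, with a difference of 0.62 from BMN, was at least 2-fold higher (1.23) when the 100 highest symbols were left out of the scaling.

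Compared with PAZA alone, low-dose BMN/PAZA had a median difference of -0.49 over 8 genes, against 0.031 over all symbols. CIDEC, at 0 in both libraries, enters with a difference of 0, and without it the median of the other 7 was -0.62. FABP4 (-0.997) and CFD (-0.979) lay just under 2-fold, so that 0 of the 8 genes were at least 2-fold lower, where 2.78% of all symbols were, and 0 were at least 2-fold higher, where 2.45% were. Low-dose against high-dose BMN/PAZA gave a median of -0.34 over 10 genes, against 0.14 over all symbols. CAR3 (-2.88) alone was at least 2-fold lower at low dose, where 2.28% of all symbols were, and 0 of the 10 were at least 2-fold higher, where 3.45% were.

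Markers of other cell types varied between the libraries together with 4 of the genes, and these 4 pairings were chosen after the values were seen. With CAR3, the summed level of 12 skeletal muscle markers was 20.1 in Control, 75.6 in PAZA, 230 in BMN, 16.7 at low-dose BMN/PAZA and 276 at high-dose BMN/PAZA. The fast troponin TNNT3 had 4.33, 18.9, 77.8, 3.88 and 87.1 in that order, and the creatine kinase CKM, TNNC2 and PVALB were listed at 0 at low-dose BMN/PAZA, PVALB also in Control. Against Control, 7 of the 12 were at least 2-fold higher in PAZA, 10 in BMN and 12 at high dose, whereas at low dose 1 was higher and 1 lower of 11. Over all symbols, between 3.2% and 4.66% were at least 2-fold higher in these comparisons and between 2.25% and 4.95% lower. The same shares stand beside the counts of the other marker lists below. The part of muscle in the CAR3 levels was not tested.

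With PPARG, the summed level of the 7 epidermis markers that have a row was 143 in Control, 75.1 in PAZA, 344 in BMN, 63.0 at low-dose BMN/PAZA and 83.3 at high-dose BMN/PAZA. The basal keratin KRT5 had 19.1, 2.30, 67.3 and 2.53 in Control, PAZA, BMN and high-dose BMN/PAZA and was listed at 0 at low-dose BMN/PAZA, as were KRT1 and DSG1A, while FLG was listed at 0 in PAZA. In BMN, 5 of the 7 were at least 2-fold higher than in Control, and 6 in PAZA, 5 at low dose and 5 at high dose were at least 2-fold lower. SBSN, a secreted epidermal protein, went another way, with 72.0, 67.0, 52.4, 59.99 and 69.9 in Control, PAZA, BMN, low-dose and high-dose BMN/PAZA, and made up most of the sum in PAZA and both BMN/PAZA libraries. Without it the other 6 markers summed to 71.0, 8.09, 291, 2.99 and 13.3, and each of the 6 was highest in BMN.

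The sums of other marker lists were also highest in BMN, as PPARG was. The 4 sebaceous gland markers with a row everywhere summed to 17.5 in BMN and to between 1.18 and 2.49 in the other libraries. Of the BMN sum, the keratin KRT79 made up 16.1, and without KRT79 the other 3 summed to 1.35 in BMN and to between 0.848 and 1.496 elsewhere. The 5 alveolar macrophage markers, KRT79 among them, summed to 50.1 in BMN and to between 21.4 and 26.2 elsewhere, and without KRT79 to 33.98 in BMN and to between 19.8 and 25.9 elsewhere. The 8 general macrophage markers summed to 1001 in BMN, within their range of 826 to 1331. The part of epidermis, sebaceous gland or macrophages in the PPARG levels was not tested.

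With FABP4, the summed level of 8 endothelial markers was 48.0 in Control, 93.9 in PAZA, 76.0 in BMN, 58.1 at low-dose BMN/PAZA and 61.5 at high-dose BMN/PAZA. The libraries stand in the same order for FABP4, but this holds for the sum and not for each marker, and none of the 8 was listed at 0. EGFL7, EMCN and CLDN5 were highest in PAZA, as FABP4 was, whereas PECAM1, CDH5, KDR and TEK were highest in BMN and TIE1 at high-dose BMN/PAZA. EGFL7 (29.6) and EMCN (21.8) made up much of the sum in PAZA. Against Control, 2 of the 8 were at least 2-fold higher in PAZA, 1 in BMN, 0 at low dose and 1 at high dose. The summed markers of macrophages, which also make FABP4, ranged from 826 at high-dose BMN/PAZA to 1331 in PAZA. The part of either cell type in the FABP4 levels was not tested.

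With CFD, the summed level of 7 fibroblast markers was 310 in Control, 530 in PAZA, 809 in BMN, 312 at low-dose BMN/PAZA and 346 at high-dose BMN/PAZA. The collagen COL3A1 made up most of each sum, with 208, 378, 552, 208 and 220 in the same order. FBLN1 was highest in PAZA and the other 6 markers in BMN. Each of the 7 had a level above 0 in all 5 libraries, and 5 of the 7 were at least 2-fold higher in BMN than in Control, with 0 in each of the other libraries. The highest sum was 2.61 times the lowest, whereas the highest CFD level was 13.8 times the lowest. The part of fibroblasts in the CFD levels was not tested.

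**Figure D4:**
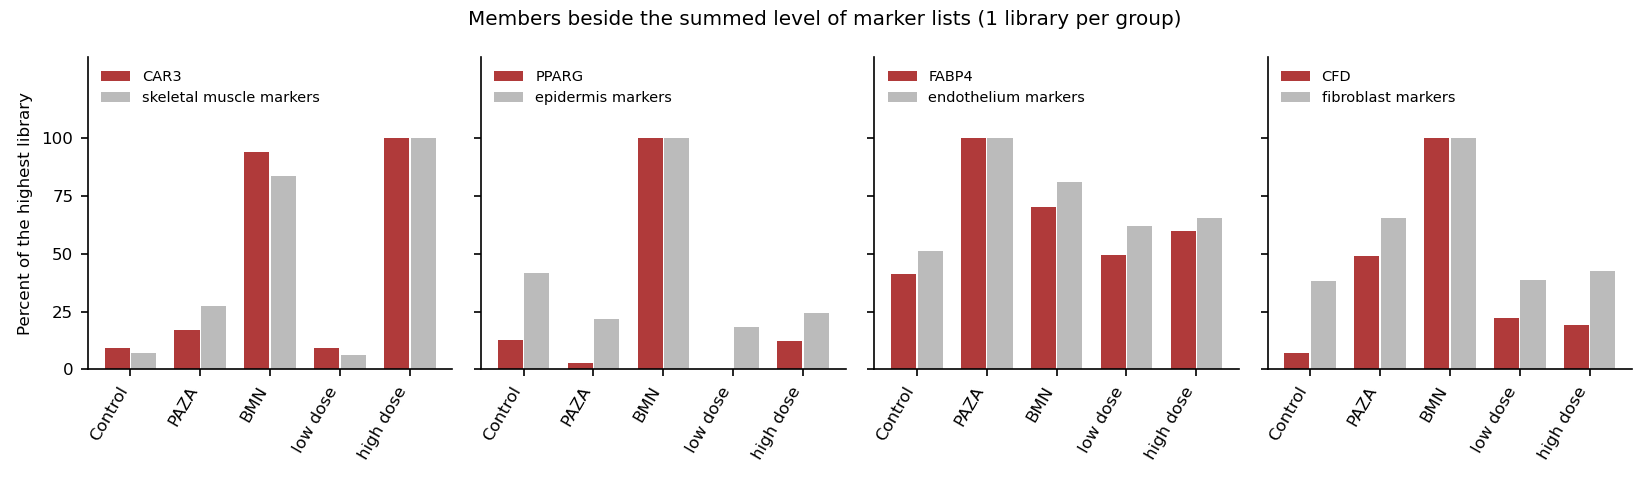
Each panel sets 1 gene beside the summed level of 1 marker list over the 5 libraries, as a percentage of the highest library: CAR3 with muscle, PPARG with epidermis, FABP4 with endothelium and CFD with fibroblasts. FABP4 and its marker list peak in PAZA, CAR3 and muscle peak at high-dose BMN/PAZA, and the other pairs peak in BMN.

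The rest of the fat-cell pathway was read from lists. Of 12 lipid droplet and lipolysis genes with a row, 0 were at least 2-fold apart from Control in PAZA or BMN. At low-dose BMN/PAZA, 0 of 11 were, since PLIN4 was at 0 in both libraries. Over all symbols, between 3.2% and 4.66% were at least 2-fold higher than Control and between 2.25% and 4.95% lower. A count of 0 in so short a list is near these shares, which also stand beside the list counts that follow. At high dose MGLL, a monoglyceride lipase, was higher (2.52 against 0.0719) and BSCL2, the seipin gene, was lower (0.474 against 2.38). CAV1, the coat protein of caveolae, was the highest of the list at 943 in BMN. PLIN2, the droplet coat protein of most cells, had a level of 164 in Control, 256 in PAZA, 193 in BMN, 211 at low-dose BMN/PAZA and 147 at high-dose BMN/PAZA. That is far above PLIN1 in each library where PLIN1 has a row.

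Of 16 fatty acid and triglyceride synthesis genes, the median difference from Control was -0.34 in PAZA, -0.0065 in BMN, -0.31 at low dose and -0.61 at high dose. Over all symbols the median was -0.068, 0.093, -0.034 and -0.17 in the same order. The desaturase SCD2 was the highest of the list at 219 in Control. SCD1, which puts a double bond into fatty acids, had 217 in Control, 92.6 in PAZA, 180 in BMN, 117 at low-dose BMN/PAZA and 102 at high-dose BMN/PAZA. SCD1 was at least 2-fold lower than Control in PAZA and at high dose. LPIN1, a phosphatidate phosphatase, was so at low and high dose, with 3.03 and 2.45 against 7.87, and the elongase ELOVL6 at low dose, with 14.1 against 32.1. DGAT2, which makes triglyceride, was the 1 gene at least 2-fold higher, in BMN (1.89 against 0.362).

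Of 8 lipid and glucose uptake genes, GPIHBP1, the endothelial anchor of LPL, was at least 2-fold higher in PAZA, with 24.6 against 6.10 in Control, and the other 7 were within 2-fold of Control in all 4 treated libraries. Among the fat-cell transcription factors, ZFP423 was the 1 gene at least 2-fold lower than Control in each treated library, with 4.99 in Control and between 0.177 and 0.617 in the others. CEBPA, which works beside PPARG in fat cells, ranged only from 0.531 to 0.932. EBF1, a factor of fat-cell precursors and B cells, was at least 2-fold higher in PAZA, with 4.08 against 1.01. MLXIPL, a glucose-responsive factor, had 1.05 at low dose and was listed at 0 in Control. KLF5 had the highest level of these factors, 45.3 in Control.

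Of 10 adipokine and receptor genes, NAMPT had the highest level, from 115 at high-dose BMN/PAZA to 177 in Control. In PAZA, 0 of the 10 were at least 2-fold apart from Control, and in BMN 0 of 9, since LEP was at 0 in both libraries. At low dose 1 of the 10 was higher, the retinol carrier RBP4, at 1.25 where Control is listed at 0. At high dose the leptin receptor LEPR was higher (3.64 against 1.26) and the adiponectin-binding cadherin CDH13 was lower (3.88 against 8.77), of 7 genes. Among 6 precursor markers, LY6A had the highest level, 289.6 at low-dose BMN/PAZA. The surface sialomucin CD34, which endothelium also makes, had 19.3 in Control, 53.9 in PAZA, 49.7 in BMN, 22.8 at low-dose BMN/PAZA and 26.2 at high-dose BMN/PAZA. The growth factor receptor PDGFRA was at least 2-fold higher in BMN, with 14.9 against 6.52 in Control. The peptidase DPP4 had 16.0, 10.5, 13.0, 4.87 and 4.14 in the same order as CD34.

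The symbols whose pattern was most like a gene's were found by the mean absolute difference of log2(level + 1) over the 5 libraries, each profile centred on its own mean, among 9165 symbols that reach a level of 5. For the mean of the 8 genes with a row everywhere, the closest were SMAD3 (0.066), GDA (0.069) and RFC5 (0.073), followed by GGA1, RBKS, ITGB2, SLC35D1, DIXDC1, GLNS-PS1 and SLC8A1 (0.11). The closest to single genes were sought after the values were seen. EGFL7 (0.054) was closest to FABP4, DPT (0.25) to CFD, ATP2A1 (0.20) to CAR3 and TRP63 (0.12) to PPARG. EGFL7 is also one of the endothelial markers and ATP2A1 one of the muscle markers above, whereas DPT and TRP63 are on neither the fibroblast nor the epidermis list. The next closest to FABP4 were IFT20 (0.078), H2BC11 (0.084), XRCC1 (0.088) and FBXO4 (0.090), which are not on the endothelial list. Next for CFD were PER2 (0.29), HP (0.31), NSD1 (0.32) and CXCL5 (0.37), which are not on the fibroblast list. For CAR3 the next was TNNI2 (0.25), also on the muscle list. With 5 libraries many symbols can lie close, and these distances are descriptions.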

How the data were processed

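RNA-seq was deposited for 5 groups with 1 library each, as 5 tables of 2 libraries. Per the labels' processing notes, the authors used HISAT2, StringTie and GRCm38, with versions not given in the sources used here. The deposited tables name no unit, and their values were treated as FPKM because they are decimal, length-scaled values of StringTie type. No read counts are given, so depth and counting error are unknown. Control and PAZA were taken from their shared table, BMN and high-dose BMN/PAZA from theirs, and low-dose BMN/PAZA from its table with the high dose. In that table the low-dose column summed to 1917690 over all of its symbols, against 520326 to 632266 for the columns used for the other libraries. Each column was therefore scaled to sum to 1000000 over the shared symbols. The highest-mean row was kept for a repeated symbol, of which there were 16 extra rows in each table with high-dose BMN/PAZA, none of a member. No member differed between tables by over 0.5% from the constant factor. This check used values above 0, which left 7 members for PAZA and 6 for low-dose BMN/PAZA. Control is in 1 table only and could not be checked. Other symbols did differ, 351 of 18320 in PAZA, and 378 of 15467 or 225 of 15479 at low dose in its tables with BMN or PAZA. Differences used log2(level + 1) and at least 2-fold, with symbols at 0 in both libraries left out of the values over all symbols and lists. Members at 0 in both were kept with a difference of 0, and medians without them are also given. No test was run. The steps were tested on simulated data.

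The members and lists were chosen with earlier results of these data known. Named were the 10 members, FABP5, list genes with the highest level or at least 2-fold apart from Control, and the 10 symbols most like the members' mean. Marker genes beside 4 members, PLIN2, CEBPA, MRAP, LEP, AGER, COX7A1, UCP1, ALDOA and GAPDH were named after their values were seen. Alternatives were a pseudocount of 0.1, a level filter, 2 other scalings, means of repeated rows, values of other tables, and fewer members. Gene positions are from GENCODE on GRCm38. Software was pandas 2.3.3 and numpy 2.4.6 under Python 3.11.15, with matplotlib 3.10.9 for figures.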

Additional observations from a re-analysis of the deposited data

Results flagged for a closer look

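CFD differed in opposite directions when PAZA was given without and with BMN. PAZA against Control was 2.11 higher on the log2(level + 1) scale, whereas BMN/PAZA against BMN was -1.94 at low dose and -2.10 at high dose. The difference between these was not tested, since each group has 1 library, and both BMN/PAZA values share the 1 BMN library.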

How the results depend on the processing

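No paired analysis was possible because each group has 1 library, and for the same reason none could be left out. The median difference of the genes depended on the added constant where many levels were near 0. With a pseudocount of 0.1, it was 1.89 for BMN against Control, -2.05 for low-dose BMN/PAZA against BMN and -1.24 for low against high dose. With only genes at a level of at least 1, low dose against BMN was -1.43 over 6 genes. The other medians moved by less than 1.5-fold, and that of low dose against Control ranged from -0.019 to 0.037. Of the 17 single-gene differences of at least 2-fold, 16 stayed so under each of the other 2 scalings, the exception being LPL at high dose against BMN, and 0 turned direction under any alternative. All 17 stayed with a pseudocount of 0.1 and with the level filter. Values of the other tables gave 16 of 16, with CIDEC in PAZA lacking a row there. Taking absent rows as listed at 0, or leaving out members at 0 in both libraries, both chosen after seeing the data, kept all 17. Leaving out LPL, CD36, PPARG, FABP4 and CAR3 left 8 of them. Counts moved more. With a pseudocount of 0.1, 7 genes rather than 3 were at least 2-fold lower at low dose than in BMN, 6 rather than 1 lower at low than at high dose, 4 rather than 0 lower at low dose than in PAZA, and 3 rather than 1 higher at high dose than in Control, with a shift by 1 gene in 6 other counts. Without the 100 highest symbols in the scaling, 3 rather than 1 were lower at low than at high dose, 3 rather than 1 higher at high dose than in Control and 2 rather than 0 lower at low dose than in PAZA, with a shift by 1 gene in 7 other counts. Median-of-ratios scaling moved 3 counts by 1 gene. With values of other tables, 2 rather than 0 were lower at low dose than in PAZA, and 0 rather than 1 lower in PAZA than in Control. Scaling by sums moved the median of all symbols by -0.17 for high dose against Control, -0.25 against BMN and 0.14 for low against high dose, and by under 0.1 elsewhere.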
